A study of Macaca mulatta with 24 samples.

Results

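The genes described here are those of the Wnt, bone morphogenetic protein (BMP) and transforming growth factor beta (TGF-beta) signalling families on an expression array of rhesus macaque jejunum. They were taken as every probe whose gene symbol in the authors' normalized table begins with WNT, FZD, SFRP, DKK, RSPO, BMP, BMPR, GREM, TGFB, TGFBR or SMAD followed by a number or, for the receptors, by the receptor letter. The rule found 92 probes for 62 genes, of 16094 gene symbols and 43603 probes on the array. It also took in 4 genes that share a family's name without being one of its ligands, receptors, secreted modulators, antagonists or SMADs: BMP1, a procollagen-cleaving protease, BMP2K, a kinase named for its induction by BMP2, TGFB1I1, a focal adhesion protein, and TGFBRAP1, a receptor-associated protein.

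Wnt ligands bind Frizzled receptors on the cell surface and stabilize beta-catenin, the signal that keeps stem cells of the intestinal crypt dividing. BMP ligands act in the opposite direction along the crypt and villus and favour differentiation, while GREM1, a gremlin secreted by cells beneath the crypt, binds BMP ligands and blocks them. TGF-beta ligands bind the receptors TGFBR1 and TGFBR2 and are known for matrix production and growth arrest. BMP and TGF-beta signals both enter the nucleus through SMAD proteins.

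The samples were 24 pieces of full-thickness jejunum from young-adult male macaques, 1 array for each animal, without pooling. Controls were 4 sham-irradiated animals labelled as day 4. The others received gamma rays over the whole body (total-body irradiation, TBI) in a single uniform dose, either 6.7 Gy or 7.4 Gy, and were sampled on day 4 (4 animals for each dose), day 7 (4 for each dose) or day 12 (2 for each dose). Full-thickness tissue holds epithelium, stroma, muscle and immune cells, so that fewer cells of a type and less RNA per cell cannot be told apart.

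The level of a probe is given as log2 of its background-corrected signal minus the 75th percentile of that array, so that 0 is the level of the 75th percentile. Levels are compared between animals for the same probe, never between probes. A probe was called when its Benjamini-Hochberg adjusted p in limma was below 0.05 and its change at least 2-fold. In the F test for any difference among the 7 groups the adjusted p alone decided. Testing was limited to the 28168 probes that, in 1 group or more, stood well above background in all animals of the group. The arrays lay on 6 slides of 4 positions and were scanned on 2 days. Between 39.4% and 87.7% of probes were well above background on an array, and the 4 arrays of slide 5, which held 1 animal of 6.7 Gy day 4, 7.4 Gy day 4, 7.4 Gy day 7 and 7.4 Gy day 12, had the lowest shares of all slides (39.4% to 49.6%). All 4 control arrays lay in position 1, and every day 7 and day 12 array lay in position 3 or 4.

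Of the 92 probes, 58 were tested, for 38 of the 62 genes. Of the 24 Wnt ligand probes 10 were tested (7 of 17 genes), of the 10 Frizzled probes 5 (5 of 8 genes), and of the 10 probes for secreted Wnt modulators 7 (4 of 7 genes). Testing covered 9 of 15 probes for BMP ligands (6 of 10 genes), 6 of 8 for BMP receptors and antagonists (3 of 5 genes), 11 of 13 for TGF-beta ligands and receptors (7 of 8 genes) and 10 of 12 for SMADs (6 of 7 genes). The Wnt ligands thus had the smallest tested share, and 4 of their probes were not well above background on any array. Among the probes not tested was that of DKK1, a secreted inhibitor that blocks the Wnt co-receptor, which was well above background on 13 of 24 arrays. The inhibitory SMAD7 was not well above background on any array, and TGFB1 was so on 16. A gene with several probes is represented by the probe with the highest mean level.

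On day 4 the data showed higher levels of GREM1 and of BMP7, with no family member called lower. After 6.7-Gy TBI, 4 of 58 probes (6.9%) were up-regulated against 1.25% of all tested probes, and none was down-regulated against 0.731% of all tested probes. After 7.4-Gy TBI, 7 of 58 (12.1%) were up-regulated against 1.71% of all tested probes, and none was down-regulated against 0.888%. The probes of a gene share a target: GREM1 and BMP7 were among the genes called at both doses, GREM1 with 2 probes, and SFRP1, TGFBR3 and TGFB3 were called after 7.4 Gy. The median change over the 58 probes was 0.05 after 6.7 Gy and 0.14 after 7.4 Gy, beside -0.06 and -0.08 over all 28168 probes. Leaving out 1 array reduced the 4 calls of 6.7 Gy to BMP7 alone for each of control replicates 1, 2 and 3 and 6.7 Gy day 4 replicates 2, 3 and 4. The 7 calls of 7.4 Gy became 3 without control replicate 1 or 2 or 7.4 Gy day 4 replicate 1, and 4 without control replicate 3 or 7.4 Gy day 4 replicate 2.

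GREM1, the gremlin that keeps BMP activity low around the crypt, was up-regulated on day 4 at both doses. Its level on the representative probe (A_01_P011235) was 1.46, 0.93, 1.31 and 1.77 in the 4 controls, 2.06, 2.92, 3.46 and 3.3 on day 4 after 6.7 Gy and 3.27, 2.92, 3.66 and 2.65 on day 4 after 7.4 Gy. All 8 animals of day 4 lay above every control. The log2 change was 1.57 ± 0.31 (SE, 4 animals against 4, 2.96-fold, adjusted p = 0.0335 in limma) after 6.7 Gy and 1.76 ± 0.26 (3.39-fold, adjusted p = 0.012) after 7.4 Gy. On day 7 the level spread from -0.19 to 2.53 after 6.7 Gy and from 1.76 to 3.69 after 7.4 Gy, and on day 12 it was 1.38 and 1.95 after 6.7 Gy and 1.92 and 1.82 after 7.4 Gy. The day 7 animals after 6.7 Gy overlapped the controls, and their log2 change was -0.14 ± 0.50 (adjusted p = 0.945). After 7.4 Gy on day 7 the lowest animal, at 1.76, lay just under the highest control, 1.77. The mean of that group lay above that of the controls, but the change was not called.

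The other 2 GREM1 probes did not behave alike. Probe A_01_P1747056 lay between -1.96 and -1.22 in the controls and between -0.82 and 0.75 in the 8 animals of day 4, again without overlap, with log2 changes of 1.57 ± 0.32 (adjusted p = 0.0355) and 1.74 ± 0.36 (adjusted p = 0.031). Probe A_01_P1671846 lay between -1.89 and -0.88 in the controls, between -3.01 and -1.33 on day 4 after 6.7 Gy and between -1.92 and 0.03 on day 4 after 7.4 Gy. On that probe the groups overlapped and no comparison with control was called.

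**Figure D1:**
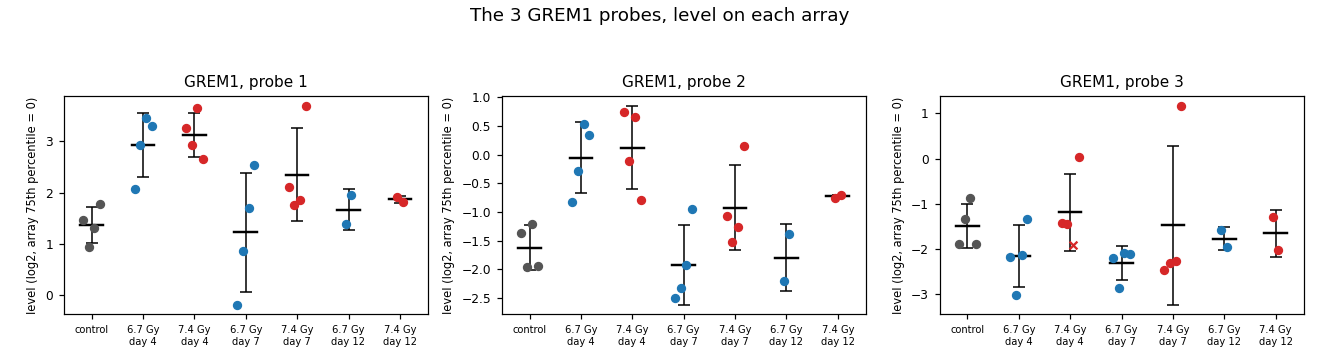
Level of each of the 3 GREM1 probes on every array (log2, the 75th percentile of the array at 0), by group, in the order A_01_P011235, A_01_P1747056, A_01_P1671846; dots are arrays well above background, crosses arrays that were not, bars the group mean and SD. On the left and middle probes all 8 day 4 animals lie above the controls, and on the right probe the groups overlap.

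BMP7, a BMP ligand, showed the largest change of any family member on day 4. Its level was -4.03, -3.29, -3.85 and -3.99 in the controls, -1.1, -1.33, -1.59 and -1.07 on day 4 after 6.7 Gy and -0.97, -2.60, -1.78 and -1.88 on day 4 after 7.4 Gy. The changes were 2.52 ± 0.20 (5.73-fold, adjusted p = 0.00142) and 1.99 ± 0.33 (3.96-fold, adjusted p = 0.0173) on the log2 scale. The probe is dim: 3 of 4 control arrays, 4 of 4 arrays of 6.7 Gy day 4 and 3 of 4 of 7.4 Gy day 4 had it well above background. With all levels under -1.86, the highest over the arrays of the lowest signal well above background, set to that value (a common floor), the BMP7 changes were 0.59 (adjusted p = 0.0453) and 0.24 (adjusted p = 0.534), and neither was called. BMP7 stayed above the highest control, -3.29, on most later arrays. The level was -2.81, -2.73, -0.92 and -2.08 on day 7 after 6.7 Gy, -3.45, 0.11, -3.28 and -0.77 on day 7 after 7.4 Gy, -2.70 and -1.33 on day 12 after 6.7 Gy, and -2.72 and -2.59 on day 12 after 7.4 Gy. The 4 later changes, 1.66, 1.95, 1.77 and 1.14 in that order, were not called (adjusted p = 0.158, 0.247, 0.451 and 0.4). The other BMP7 probe (A_01_P1715811) was well above background on 12 of 24 arrays and was not tested. On it the 6.7 Gy day 4 animals lay between -4.73 and -3.85 and the controls between -6.63 and -5.50, while 7.4 Gy day 4 ran from -6.19 to -4.02 and overlapped them.

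SFRP1, a secreted Frizzled-related protein that binds Wnt ligands, was 0.18, 0.16, 0.33 and 0.73 in the controls and 1.32, 1.37, 1.65 and 1.06 on day 4 after 7.4 Gy, a log2 change of 1.00 ± 0.18 (adjusted p = 0.0221) that only just reached the fold threshold. After 6.7 Gy it was 0.70, 0.95, 1.21 and 1.23, and the change of 0.67 ± 0.19 was not called (adjusted p = 0.0838). TGFBR3, or betaglycan, a co-receptor that presents TGF-beta ligands, was 0.84, -0.03, 0.58 and 0.67 in the controls and 1.59, 2.12, 1.52 and 1.27 on day 4 after 7.4 Gy (1.11 ± 0.24, 2.16-fold, adjusted p = 0.0369). The 6.7 Gy day 4 animals ran from 0.74 to 1.68 and overlapped the controls (0.68 ± 0.28, adjusted p = 0.21).

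TGFB3, a TGF-beta ligand, was -4.48, -4.69, -4.75 and -4.81 in the controls and -3.16, -3.56, -3.49 and -3.73 on day 4 after 7.4 Gy. The groups did not overlap and the log2 change was 1.20 ± 0.16 (2.29-fold, adjusted p = 0.0099), but only 2 of 4 of those irradiated arrays and 3 of 4 control arrays had the probe well above background. All its levels lay under the common floor. After 6.7 Gy the change was 0.96 ± 0.27 (adjusted p = 0.0839), and the other TGFB3 probe was not well above background on any array. Whether the doses differed in SFRP1, TGFBR3 or TGFB3 was tested over the 3 days together, and the differences of 0.20 ± 0.18, 0.27 ± 0.23 and 0.45 ± 0.28 were not called (adjusted p = 0.882, 0.88 and 0.835).

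**Figure D2:**
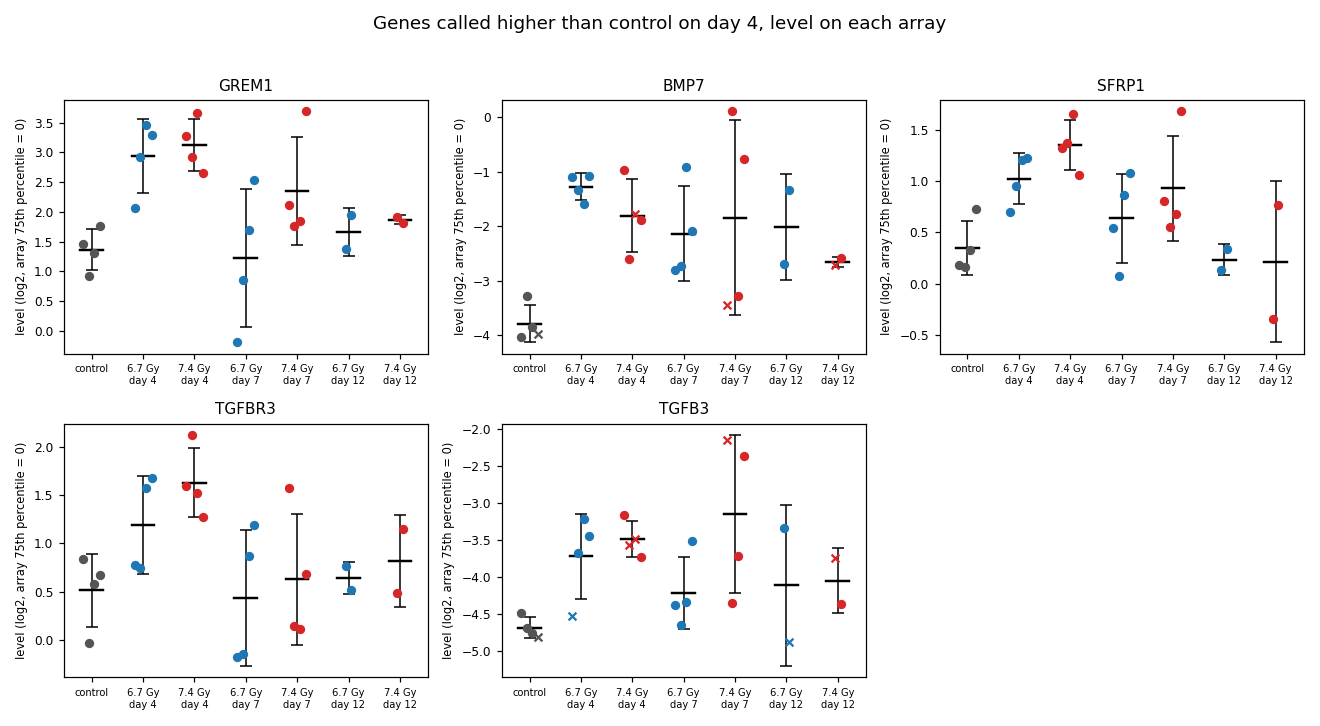
Level of 5 genes on every array (log2, the 75th percentile of the array at 0), by group; dots are arrays well above background, crosses arrays that were not, bars the group mean and SD. On day 4 after 7.4 Gy all 5 lie above the controls, and BMP7 stays above the highest control on most arrays of days 7 and 12.

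A further pair of probes passed the adjusted p on day 4 after 7.4 Gy without reaching 2-fold. One was the representative probe of TGFBR2, the type II receptor that binds TGF-beta ligands, at 0.92 ± 0.15 (adjusted p = 0.0167). The other was a probe of SMAD9, a SMAD of the BMP branch (A_01_P1714391), at 0.59 ± 0.13 (adjusted p = 0.0376), whose representative probe changed by 0.61 ± 0.18 (adjusted p = 0.0877).

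No family was tested as a group, and most probes behind the following medians were not called. The 7 probes for secreted Wnt modulators had a median log2 change of 0.33 after 6.7 Gy and 0.57 after 7.4 Gy. All 7 were higher after 7.4 Gy, though only SFRP1 was called. The dimmer SFRP4 probe among them passed the background filter through the 7.4 Gy day 4 group alone. The 11 probes for TGF-beta ligands and receptors had medians of 0.48 and 0.66; they include those of TGFB1I1 and TGFBRAP1, as the BMP ligands include BMP1 and BMP2K. The 10 Wnt ligand probes had medians of -0.24 and -0.27, with 9 of the 10 lower after 7.4 Gy and none called, and the 10 SMAD probes had medians of 0.01 and 0.09.

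Among the Wnt ligands, WNT9B, WNT11 and WNT3 had the smallest p in a test for any difference among the 7 groups, and WNT9B alone was called (adjusted p = 0.0493). Its call held in 4 of 12 other settings and for 4 of 24 arrays left out, and was lost with slide, scan day or replicate number as a block. WNT9B was -1.35, -1.84, -1.32 and -1.26 in the controls and -2.90, -3.31, -1.89 and -2.35 on day 4 after 7.4 Gy, and reached its lowest group mean on day 7 after 7.4 Gy (-4.38, -2.57, -2.06 and -2.68). Neither the day 4 change (-1.17 ± 0.30, adjusted p = 0.0577) nor the day 7 change (-1.48 ± 0.44, adjusted p = 0.159) was called. WNT11, a ligand of the beta-catenin-independent branch, ran from 2.76 to 3.06 in the controls and from 2.17 to 2.81 on day 4 after 7.4 Gy, and its adjusted p over the groups was 0.373. WNT3, a ligand made by Paneth cells at the crypt base, ranged from -6.50 to -1.33 over the 24 arrays with wide overlap of all groups (adjusted p = 0.515).

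The Frizzled receptors showed no call against control at any time. FZD6 was called in the test over the 7 groups (adjusted p = 0.0361), a call that held in 9 of 12 other settings and for 11 of 24 arrays left out, and FZD10 and FZD8, next in order, were not (adjusted p = 0.231 and 0.348). Of the secreted modulators, DKK3, a divergent member of the Dickkopf family, had 3 probes well above background on all 24 arrays, and its representative probe changed by 0.21 ± 0.21 and 0.48 ± 0.21 on day 4 (adjusted p = 0.603 and 0.193). SMAD3, which carries TGF-beta signals, changed by 0.55 ± 0.16 and 0.57 ± 0.18 (adjusted p = 0.0948 and 0.101), while its other probe changed the opposite way by -0.35 ± 0.16 and -0.55 ± 0.17 (adjusted p = 0.251 and 0.0972). SMAD1, which carries BMP signals, changed by 0.08 ± 0.13 and 0.05 ± 0.15 (adjusted p = 0.755 and 0.856). BMPR1A, a type I BMP receptor, ran from -0.93 to -0.19 over all 24 arrays.

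**Figure D3:**
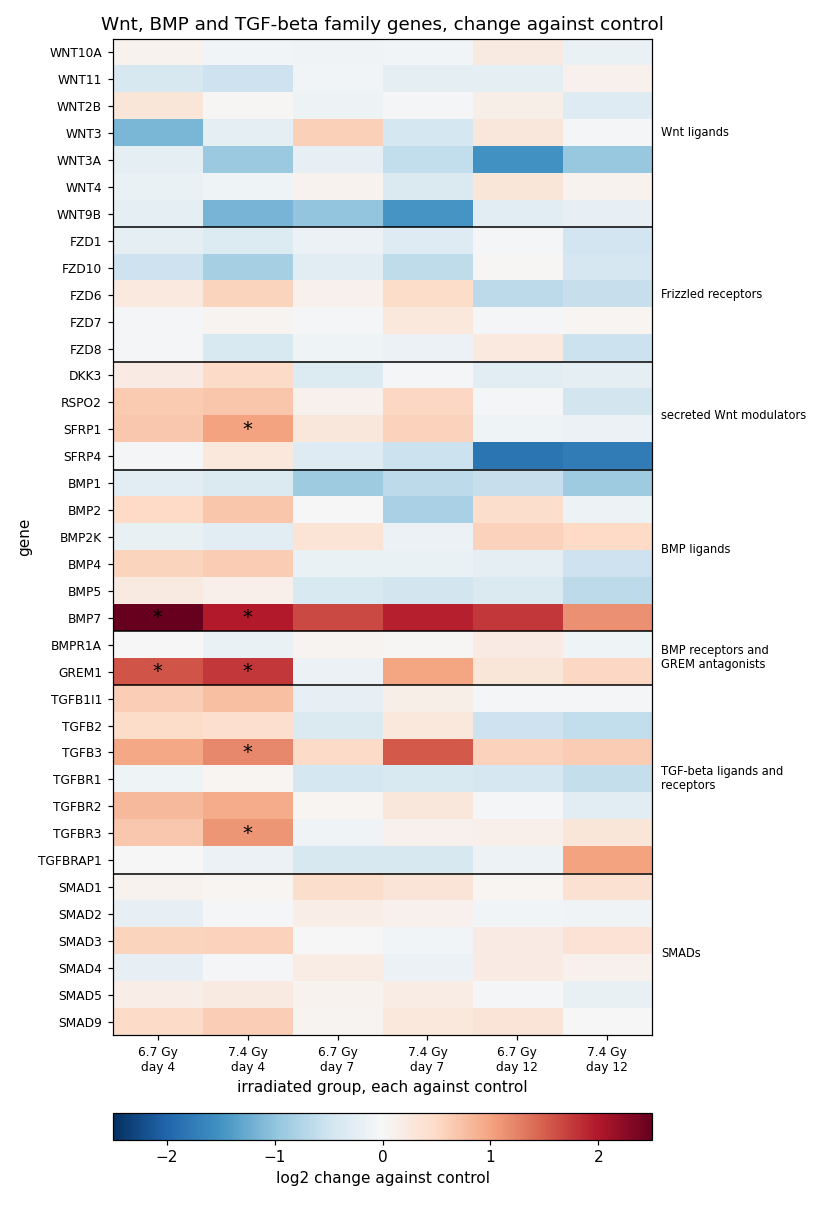
Log2 change against control of the representative probe of each of 37 tested genes (rows, by family) in the 6 irradiated groups (columns); red is higher, blue is lower than control, and asterisks mark changes called by adjusted p and fold. The calls lie on day 4 alone: BMP7 and GREM1 after both doses, and SFRP1, TGFB3 and TGFBR3 after 7.4 Gy.

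No family member was called against control on day 7 or day 12 when each group was fitted with the controls alone, in limma or in the methods' t-test. In 1 limma model of all arrays TGFB3 (1.54 ± 0.42, adjusted p = 0.0489) and WNT9B (-1.48 ± 0.37, adjusted p = 0.0364) were called on day 7 after 7.4 Gy. After 6.7 Gy on day 7, 0.0639% of all tested probes were called. At an unadjusted p under 0.05 with a 2-fold change there was 1 member, BMP7, against 1.56% of all tested probes. After 7.4 Gy on day 7, 0.288% of all tested probes were called, and 3 members passed the unadjusted rule (BMP7, TGFB3 and WNT9B) against 2.96%. On day 12, with 2 animals for each dose, 0.00710% and 0.00355% of all tested probes were called for the lower and the higher dose. There BMP7 and SFRP4 passed the unadjusted rule after 6.7 Gy against 1.82%, and BMP7 after 7.4 Gy against 2.55%. The 4 comparisons share their control arrays.

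The later days were also set against day 4, over both doses together. On day 7, 3 of 58 probes (5.17%) were lower than on day 4 and none was higher, against 0.990% of all tested probes called lower and 0.895% called higher. Both up-regulated GREM1 probes fell by 1.24 ± 0.34 and 1.46 ± 0.29 (adjusted p = 0.0156 and 0.00227), and BMP2, a BMP ligand of differentiating epithelium, fell by 1.01 ± 0.18 (adjusted p = 0.0011). The BMP2 difference only just reached 2-fold, and its call was lost with slide as a block (-0.99), without slide 5 (-0.96), with normexp and for 7 of 16 arrays left out. All 7 probes of secreted Wnt modulators (4 genes) and all 11 of the TGF-beta family (7 genes) had lower means than on day 4. Their medians were -0.55 and -0.50, beside 0.06 for all tested probes. The same day 4 arrays were set against control above, so that rise and fall are not independent. The other families held both signs: 7 of 9 BMP ligand probes and 5 of 6 of BMP receptors and antagonists were lower, and 6 of 10 Wnt ligand, 4 of 5 Frizzled and 6 of 10 SMAD probes were higher.

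BMP2 was 0.70, 1.53, 1.73 and 0.71 in the controls, between 1.40 and 1.90 on day 4 after 6.7 Gy and between 1.5 and 2.20 on day 4 after 7.4 Gy. Its lowest group was day 7 after 7.4 Gy, at 0.16, 0.83, -0.24 and 0.63, where 1 animal lay inside the control range and 3 below it. On slides 3 and 4, whose day 7 arrays were of 6.7 Gy, BMP2 differed from day 4 by -0.48 and -0.47. On slides 5 and 6, whose day 7 arrays were of 7.4 Gy, it differed by -1.65 and -0.74. On day 12 the level was 1.66 and 1.54 after 6.7 Gy and 1.15 and 0.95 after 7.4 Gy. Neither day 4 group differed from control by a called amount (0.49 ± 0.26 and 0.70 ± 0.29, adjusted p = 0.321 and 0.173).

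BMP4, a BMP ligand secreted by villus stroma, had the smallest p of all family members in the test over the 7 groups (adjusted p = 0.00976), where 11 of 58 probes (19%) were called against 9.96% of all tested probes. It ran from -0.75 to -0.18 in the controls, from -0.09 to 0.16 on day 4 after 6.7 Gy, from -0.38 to 0.40 on day 4 after 7.4 Gy and from -1.20 to -0.35 in the 12 animals of days 7 and 12. It was lower than on day 4 by 0.76 ± 0.14 on day 7 (adjusted p = 0.00115) and by 0.96 ± 0.17 on day 12 (adjusted p = 0.00174), both short of 2-fold. The BMP4 call over the groups held in 11 of 13 other settings and for 24 of 24 arrays left out. It was lost without slide 5 and without slides 4 and 5. BMP5, a related ligand, was called over the groups (adjusted p = 0.0447), a call that held in 7 of 12 other settings and for 6 of 24 arrays left out, with its day 7 difference from day 4 at -0.60 ± 0.14 (adjusted p = 0.00611).

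On day 12, 8 of 58 probes (13.8%) were lower than on day 4 and none was higher, against 2.12% of all tested probes called lower and 1.31% called higher. Among the genes called were GREM1 (both up-regulated probes), TGFBR2 (both brighter probes), TGFB2, SFRP4 and FZD6. With the 4 arrays of slide 5 left out 2 probes were called, of which 1, the TGFBR2 probe A_01_P1759361, was among these 8. The calls of GREM1 (-1.34 and -1.33) and TGFB2 (-0.78) were lost there, with 1 array left for 7.4 Gy day 12. FZD6 (-0.89) and the representative TGFBR2 probe (-0.91) fell short of 2-fold. Most of the 8 calls were also lost without replicate 1 of 7.4 Gy day 12 alone, an array of that slide. GREM1 fell by 1.26 ± 0.41 and 1.30 ± 0.36 (adjusted p = 0.0475 and 0.0221).

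TGFBR2 was 0.57, 0.09, 0.30 and 0.29 in the controls, 0.94, 0.68, 1.62 and 1.24 on day 4 after 6.7 Gy and 1.25, 1.22, 1.39 and 1.07 on day 4 after 7.4 Gy, so that all 8 animals lay above the controls. On day 12 it was 0.22, 0.36, -0.18 and 0.24. The difference between day 12 and day 4 was -1.02 ± 0.20 (adjusted p = 0.00328), and -1.14 ± 0.25 on the next brighter probe (adjusted p = 0.00651, and -0.44 with the common floor), while the third probe was well above background on 14 of 24 arrays and spread from -7.34 to -0.58. TGFB1I1, a partner of focal adhesions, had a similar course without reaching 2-fold, at -0.72 ± 0.15 on day 7 and -0.72 ± 0.18 on day 12 against day 4 (adjusted p = 0.00273 and 0.0131).

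SFRP4, a secreted Wnt-binding protein, ran from -2 to -0.53 in the 8 animals of day 4 and was -2.81, -3.65, -3.38 and -2.92 on day 12, a difference of -1.89 ± 0.43 (adjusted p = 0.00721) without overlap. With the common floor it was -0.58 (adjusted p = 0.285), and without slide 5 it was -1.82 (adjusted p = 0.0648). Its other tested probe differed by -1.11 ± 0.52 and was not called (adjusted p = 0.163). The controls were 0.39, -2.16, -1.52 and -2.35, so that the spread within the control group was wider than that of day 4, and the day 12 groups differed from control by -1.82 ± 0.75 and -1.74 ± 0.74 (adjusted p = 0.699 and 0.596). FZD6, a Frizzled receptor of the planar polarity branch, ran from -2.10 to -0.88 on day 4 and was -2.39, -2.59, -2.97 and -1.85 on day 12 (-1.01 ± 0.21, adjusted p = 0.0042). The controls lay between -1.92 and -1.75, and with the common floor the difference was -0.44 (adjusted p = 0.0591). TGFB2, a TGF-beta ligand, ran from -3.10 to -1.96 on day 4 and from -4.19 to -3.07 on day 12 (-1.01 ± 0.23, adjusted p = 0.00696).

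**Figure D4:**
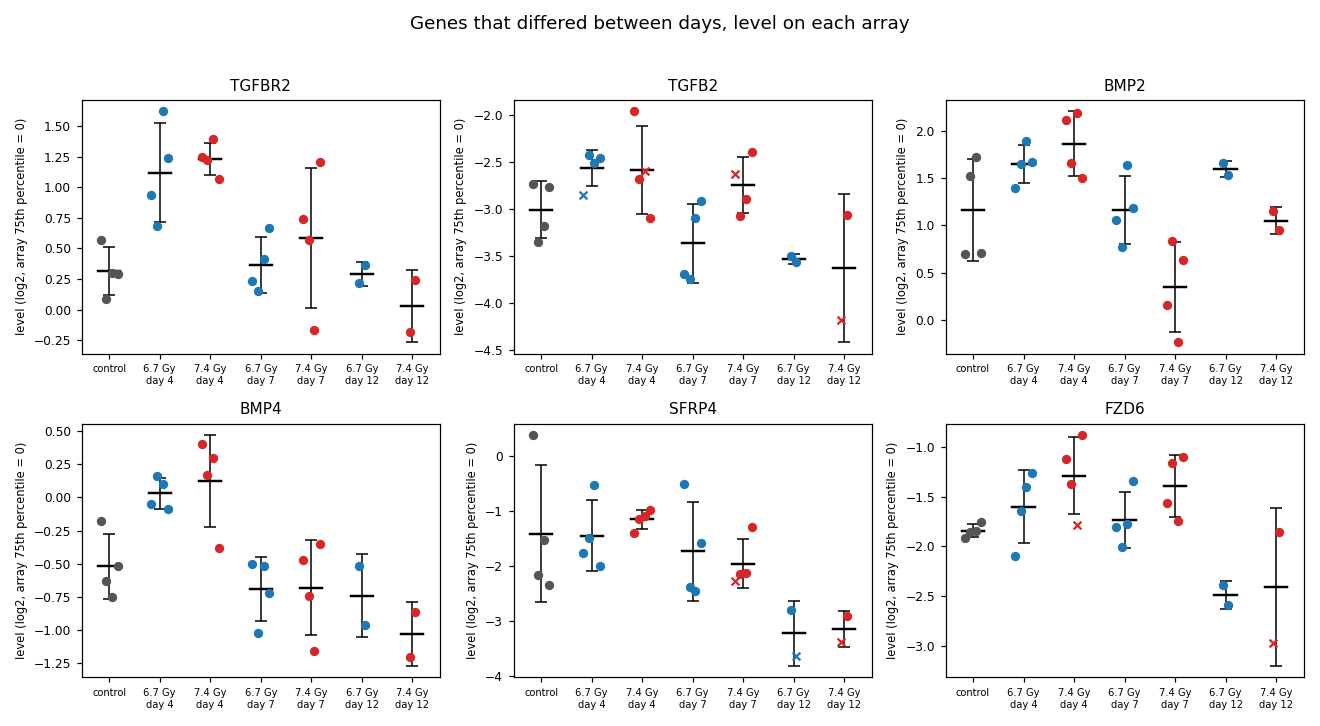
Level of 6 genes on every array (log2, the 75th percentile of the array at 0), by group; dots are arrays well above background, crosses arrays that were not, bars the group mean and SD. TGFBR2 and BMP4 are highest on day 4, SFRP4 and FZD6 lowest on day 12, and BMP2 lowest on day 7 after 7.4 Gy.

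The doses were compared over the 3 days together. None of the 58 probes was called, and 0% of all tested probes were. At an unadjusted p under 0.05 with a 2-fold change there was again no member, against 0.529% of all tested probes. The members' differences, 7.4 Gy minus 6.7 Gy, ran from -1.06 to 0.75, and the upper end, GREM1 probe A_01_P1747056 at 0.75 ± 0.28, had an adjusted p of 0.803. The t-test was not run for this comparison.

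Other genes of the 3 pathways came from a list of receptors, inhibitors and targets outside the name rule, of which 51 were tested. On each dose's day 4, 5 of the 51 were up-regulated, against 1.25% of all tested probes after 6.7 Gy and 1.71% after 7.4 Gy, and 1 was down-regulated, against 0.731% and 0.888%. WIF1, a secreted inhibitor that binds Wnt ligands, was -1, -1.11, -0.87 and -1.06 in the controls, 1.02, 1.26, 0.65 and 1.39 on day 4 after 6.7 Gy and 0.45, 2.00, 1.67 and 1.03 on day 4 after 7.4 Gy. All 8 animals lay above every control, with log2 changes of 2.09 ± 0.18 (adjusted p = 0.00183) and 2.30 ± 0.31 (adjusted p = 0.00988). EPHB3, a receptor and beta-catenin target of the crypt base, changed by 1.88 ± 0.30 (adjusted p = 0.0167) and 1.47 ± 0.27 (adjusted p = 0.0234). CTGF, a matrix protein and TGF-beta target, changed by 1.33 ± 0.24 (adjusted p = 0.0248) and 1.63 ± 0.37 (adjusted p = 0.0427), and the activin receptor ACVR1C fell by 1.00 ± 0.16 and 1.01 ± 0.19 (adjusted p = 0.0165 and 0.0253).

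The remaining calls of the list were made at 1 dose each. WLS, which carries Wnt ligands to the cell surface, and CCND1, the cyclin D1 gene and a beta-catenin target, were up-regulated after 6.7 Gy by 1.36 ± 0.25 and 1.12 ± 0.22 (adjusted p = 0.0258 and 0.0304). After 7.4 Gy they changed by 1.14 ± 0.41 and 1.17 ± 0.31 (adjusted p = 0.132 and 0.0634). THBS1, a matrix protein that activates latent TGF-beta, and the follistatin-like protein FSTL1 were up-regulated after 7.4 Gy by 1.26 ± 0.27 and 1.25 ± 0.19 (adjusted p = 0.0376 and 0.0129). After 6.7 Gy they changed by 1.15 ± 0.29 and 0.92 ± 0.17 (adjusted p = 0.0661 and 0.0252, the latter short of 2-fold). With position in the model no day 4 call of the 8 genes named here held. In position 1 alone the changes after 6.7 Gy were 2.15 for WIF1, 1.92 for EPHB3 and 1.35 for WLS. They were 1.15 for CTGF, 1.00 for CCND1 and -0.87 for ACVR1C. The irradiated arrays of position 1 shared no slide and no scan day with the controls. With 1 array left out, the WIF1 calls held for 8 of 8 arrays at each dose and the FSTL1 call for 8 of 8, the EPHB3 calls for 8 of 8 and 3 of 8, the ACVR1C calls for 5 of 8 and 2 of 8, and the CTGF calls for 3 of 8 and 1 of 8. The WLS call held for 3 of 8, the CCND1 call for 2 of 8 and the THBS1 call for 0 of 8. With the common floor EPHB3 changed by 0.41 and 0.11, CTGF by 0.00 and 0.14, and THBS1 by 0.19 after 7.4 Gy, none of them called. None of the 51 was called against control on day 7 or 12. Against day 4, 3 were lower on day 7 (WIF1 and THBS1 among them), against 0.990% of all tested probes, and 4 on day 12 (WIF1, ROR1, CTGF and THBS1), against 2.12%, and none was higher. The doses parted for WIF1 on day 12. It was 0.89 and 1.3 after 6.7 Gy, inside the range of 6.7 Gy day 4 and above every control, and -1.88 and -0.33 after 7.4 Gy. ROR1, a Wnt receptor, was named after its values were seen, as were the cell type markers given next.

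**Figure D5:**
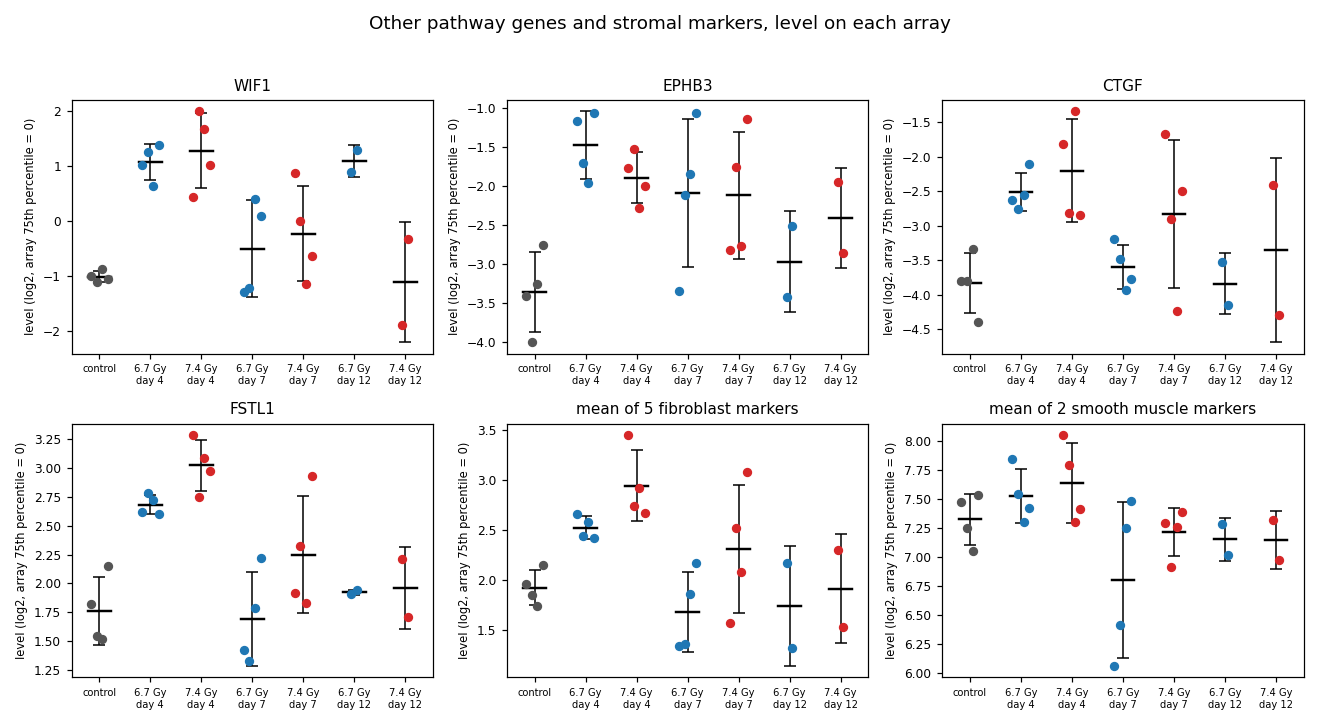
Level on every array (log2, the 75th percentile of the array at 0) of 4 other pathway genes and of the mean over 5 fibroblast and 2 smooth muscle markers, by group; dots are arrays, bars the group mean and SD. WIF1, EPHB3, FSTL1 and the fibroblast mean are above every control in all 8 animals of day 4.

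Fibroblast markers were also measured. Of 6 listed, 5 were tested, and after 7.4 Gy on day 4 4 of the 5 were up-regulated: COL1A2, COL3A1, LUM and DCN, by 1.12 to 1.29, against 1.71% of all tested probes. The mean level over the 5 ran from 1.74 to 2.15 in the controls, 2.42 to 2.66 on day 4 after 6.7 Gy, 2.67 to 3.45 on day 4 after 7.4 Gy, 1.34 to 3.08 on day 7 and 1.32 to 2.30 on day 12. After 6.7 Gy none of the 5 was called, with a median change of 0.80. The mean over the 2 tested smooth muscle markers, ACTG2 and DES, ran from 7.05 to 7.53 in the controls and from 7.30 to 8.05 in the 8 animals of day 4, and neither was called. Of the 33 cell type markers tested in all, the other calls against control on day 4 were VIL1 of enterocytes, lower after 6.7 Gy, and OLFM4 of the crypt base and CD14 of macrophages, higher after 7.4 Gy. The jejunal markers of the list were present, with the mean over 4 enterocyte markers between 1.77 and 3.11 on all arrays. Against day 4, 2 of the 5 fibroblast markers were lower on day 7, COL1A2 and COL3A1, against 0.990% of all tested probes, and 5 of the 33 markers were lower on day 12, these 2 with KDR and VWF of endothelium and CD14, against 2.12%. The part of the marker changes in the results above was not tested.

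Within slides the day 4 calls kept their sign, but with slide as a block the 7.4 Gy calls of BMP7 (adjusted p = 0.0984), TGFBR3 (adjusted p = 0.0736) and TGFB3 (adjusted p = 0.0851) were lost in limma, and all 3 were lost with scan day as a block as well. On slides 1 and 2, each with 1 control and 1 animal of 6.7 Gy day 4, the differences were 2.00 and 2.37 for GREM1 and 2.44 and 2.23 for BMP7. On slides 3 and 4, each with 1 control and 1 animal of 7.4 Gy day 4, they were 1.97 and 1.16 for GREM1 and 2.88 and 1.40 for BMP7. SFRP1 differed there by 1.00 and 0.65, TGFBR3 by 1.01 and 1.45 and TGFB3 by 1.59 and 1.25. Within the scan day that held the controls, the differences of these genes ran from 2.01 to 2.46 after 6.7 Gy and from 1.00 to 2.01 after 7.4 Gy.

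Position on the slide went with group. All arrays of 7.4 Gy day 4 lay in position 2, and those of 6.7 Gy day 4 were split evenly between positions 1 and 2. In position 1 alone the 2 animals of 6.7 Gy day 4 differed from the 4 controls by 2.58 for BMP7 and 1.12 for GREM1. Those 2 arrays shared no slide and no scan day with the controls, so that slide and scan day cannot be told apart from irradiation there. One of them was on slide 5. With position in the model no member was called on day 4. The estimates after 7.4 Gy were 2.10 for BMP7, 0.87 for GREM1, 0.60 for SFRP1, 0.42 for TGFB3 and 0.24 for TGFBR3. The days 7 and 12 cannot be told apart from position when set against control or day 4.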

How the data were processed

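Jejunal RNA of 24 macaques was hybridized to 1-colour Agilent rhesus arrays. The deposited scanner files hold 1 background-corrected intensity per spot and, per the file headers, were made by the authors with Feature Extraction 11.0.1.1 on a grid annotated on rheMac2. A second deposited file gives the authors' log2 values from GeneSpring, scaled to the 75th percentile and, as its values show, centred on each probe's median, which gave the gene symbols and served as an alternative. Such scaling assumes that the 75th percentile is the same in every sample.

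Control spots were left out, spots of a probe averaged on the log2 scale, and non-uniform spots dropped where another was left. Groups came from the dose and day labels (a protocol label names another last day than the sample labels and the study's methods do). Each irradiated group was compared with control in limma 3.58.1 (R 4.3.3) on those arrays alone. Comparisons of days and of doses and an F test came from 1 model of 7 groups. P-values were adjusted over all 28168 probes. Figures were drawn with matplotlib. The members, gene lists and markers were chosen with earlier results of these data known. Named were the genes called against control, the 3 genes of each family with the smallest F-test p, up to 3 genes called for each later day and the called genes of the pathway list with the 5 largest changes for each direction. The number of arrays limits the precision. On simulated data for 7.4 Gy day 4 against control, on 28168 probes, 36 of 50 probes changed by 1.5 (log2) and 50 of 50 changed by 4 were recovered, and 4 unchanged probes were called. Alternatives were other background corrections, scalings, filters and tests, slide, scan day, position or replicate number as a block, and leaving out each array; normexp used the median spot signal, since no mean signal was in the files. Some genes are not reported here, though counts of probes include them. No sequence or coordinate was used here.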

Additional observations from a re-analysis of the deposited data

Results flagged for a closer look

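In 7 of 165 groups of 4 animals, over 33 named probes, 1 animal stood far from the other 3, and chance gives about 1 in 20 groups. SFRP4 was -1.28 in replicate 4 of 7.4 Gy day 7 (the others -2.28 to -2.12), and THBS1 was -1.78 there (the others -3.19 to -3.04). THBS1 was -3.03 in replicate 1 of 6.7 Gy day 4 (the others -1.85 to -1.62) and -1.09 in replicate 1 of 7.4 Gy day 4 (the others -2.34 to -2.18). BMP5 was -1.62 in replicate 2 of 6.7 Gy day 7 (the others -1.93 to -1.88). WNT9B was -1.84 in control replicate 2 (the others -1.35 to -1.26), and WNT11 was 2.88 in replicate 2 of 6.7 Gy day 4 (the others 2.32 to 2.40).

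Levels in irradiated animals differed between days in 10 comparisons of 8 probes, by the test of the difference itself. All controls are labelled day 4, so whether the effect of irradiation changed between days was not tested. On day 7 against day 4 the differences were -1.24 and -1.46 for the GREM1 probes and -1.01 for BMP2. On day 12 against day 4 they were -1.02 and -1.14 for the TGFBR2 probes, -1.26 and -1.30 for the GREM1 probes, -1.89 for SFRP4, and -1.01 for both FZD6 and TGFB2. The part of slide position, which goes with day, cannot be told apart.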

How the results depend on the processing

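Counts of called members depended on the setting. For 6.7 Gy day 4 the 4 calls became 1 with no filter on dim probes, 2 with all arrays in 1 model, 0 with position as a block, 1 in the methods' t-test and 1 with a common floor on dim signals, and ranged from 1 to 5 with 1 array left out. For 7.4 Gy day 4 the 7 calls became 0 with no dim filter, 0 with position as a block, 2 in the t-test and 0 without the 8 arrays of slides 4 and 5, and ranged from 3 to 7 with 1 array left out. For 7.4 Gy day 7 the 0 calls became 2 with all arrays in 1 model. For day 12 against day 4 the 8 calls became 4 with normexp, 4 with only probes detected on all arrays, 3 with the common floor, 2 without slide 5 and 1 without slides 4 and 5, and ranged from 2 to 10 with 1 array left out. For the F test the 11 calls became 4 with no dim filter, 17 with slide as a block, 5 without slide 5 and 0 without slides 4 and 5, and ranged from 4 to 15 with 1 array left out. The causes were not tested. For day 7 against day 4 the count stayed within 1.5 times of 3 in all 13 settings and ranged from 2 to 4 with 1 array left out. In the other 4 comparisons the 0 calls stayed at 0. No named change against control or between days turned its direction. The F test measures a range, which has no direction. The common floor and the slides left out were chosen after seeing the data. Position could not be fitted as a block for the day 7 and day 12 groups, the days or the F test.

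With the replicate number as a block the calls were 1 for 6.7 Gy day 4, 2 for 7.4 Gy day 4, 3 for day 12 against day 4 and 7 for the F test, and the other counts did not change. The numbers did not pair the samples: deviations of same-numbered samples correlated at -0.165 to 0.334 over 62 pairs (mean 0.0399), and 10 of 24 samples correlated best with their own number. Dim probes such as BMP7, TGFB3 and SFRP4 lie near background, and the size of their changes depends on values there.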
